A study of Mus musculus with 12 samples.

Results

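The 8 genes described here, Pcp2, Car8, Ppp1r17, Cbln1, Cbln3, Zic1, Zic2 and Zic4, are known from cerebellar Purkinje cells and granule cells, and were taken by symbol from a table of 43346 mouse genes, in which 8 of 8 were found. RNA sequencing of 12 mouse brain libraries gave 3 groups of 4. The Young libraries (1, 3, 4 and 5) came from mice of 3 months, with the strain label C57BL/6, wild type and untreated. The Old libraries (7, 8, 9 and 10) came from mice of 23 months, with the strain label C57BL/6;SJL-Tg, wild type, which drank vehicle (0.1% polyethylene glycol, PEG) from 9 months of age. The Old_CP2 libraries (11, 12, 13 and 15) came from mice of the same age, strain label and genotype that received CP2, an inhibitor of mitochondrial complex I, at 25 mg/kg per day from 9 months. Age, strain label and vehicle all differ between Young and the other groups and cannot be told apart. The series' design text speaks of APP/PS1 mice, whereas the label of every library gives a wild-type, non-transgenic animal. The tissue was a cross-section of frozen brain described as holding hippocampus and cortex, and cerebellum is not named in that description. The labels do not say whether each library is a separate animal, so p-values measure only the spread between libraries.

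Purkinje cells are the large inhibitory neurons that carry the only output of the cerebellar cortex, and granule cells are the small, very numerous excitatory neurons whose parallel fibres contact them. At that synapse granule cells secrete cerebellin-1, which bridges neurexin on the fibre and a receptor on the Purkinje cell. Zic proteins are zinc finger transcription factors of the dorsal neural tube that persist in granule cells, and Zic genes are also transcribed outside the cerebellum, including in thalamus, septum and meninges.

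Old 7 carried the highest level of 7 of the 8 genes, and Zic4 was the exception, highest in Young 4. For Pcp2, Car8, Cbln3 and Ppp1r17, Old_CP2 15 came second. Zic1, Zic2 and Zic4 also ranged widely among the other 10 libraries, with high levels in Young and the lowest in Old_CP2 11. None of the 8 passed the test in any of the 3 comparisons between groups.

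Promoter sequence was looked at for the members that have an entry in the RefSeq table of mouse promoters (build GRCm38.p6, the build also called mm10), which matched 4 of 8: Pcp2, Cbln3, Zic1 and Zic4. Shown are Pcp2 of Purkinje cells, Cbln3 of granule cells and Zic1, all highest in Old 7. Zic1 followed another order among the other libraries. Each run lies on the minus strand, is written 5′ to 3′ and ends before the outermost annotated start: Pcp2 at chr8:3625548-3625797 (250 bases), Cbln3 at chr14:55884393-55884506 (114 bases) and Zic1 at chr9:91365811-91366018 (208 bases). Capitals mark matches to the motifs searched.
Pcp2: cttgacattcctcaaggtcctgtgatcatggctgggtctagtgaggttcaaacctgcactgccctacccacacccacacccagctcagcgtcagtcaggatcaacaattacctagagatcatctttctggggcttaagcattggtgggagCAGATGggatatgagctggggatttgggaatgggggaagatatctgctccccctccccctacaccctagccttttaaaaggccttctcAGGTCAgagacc
Cbln3: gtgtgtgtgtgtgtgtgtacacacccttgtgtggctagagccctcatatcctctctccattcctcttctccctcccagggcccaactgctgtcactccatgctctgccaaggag
Zic1: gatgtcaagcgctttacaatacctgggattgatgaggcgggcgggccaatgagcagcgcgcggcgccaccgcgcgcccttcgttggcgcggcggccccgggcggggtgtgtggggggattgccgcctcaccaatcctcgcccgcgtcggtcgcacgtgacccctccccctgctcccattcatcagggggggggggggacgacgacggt
Both strands were searched for AGGTCA (the half-site of ROR receptors), CAGATG (an E-box of the NeuroD type), CAGCAGG (a core bound by Zic proteins) and TATAAA, and no match overlapped another. The Pcp2 window held AGGTCA once, its first base 12 bases before the start, and CAGATG once, its first base 100 bases before the start. Of 32851 promoter windows of 250 bases, 14% held AGGTCA, 14.4% held CAGATG, 8.44% held CAGCAGG and 12.4% held TATAAA. The Cbln3 and Zic1 windows held none of the 4 motifs, which says only that these letters are absent there. In windows of 114 bases the 4 motifs were found in 4.01% to 6.72% of promoters, and in windows of 208 bases in 7.29% to 12.1%.

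Levels in the following are normalised CPM, that is, counts relative to the library's scaled total, and they compare libraries for 1 gene. Assigned counts summed to between 70548781 and 99449665 per library, with Old 7 at 87844778 and Old_CP2 15 at 78021395, inside that range. In bulk tissue, fewer cells of a type and less RNA per cell cannot be told apart.

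Among the Purkinje genes, Pcp2 (Purkinje cell protein 2, a modulator of G protein signalling; ENSMUSG00000004630, chr8:3623371-3625545) measured 3.82, 3.02, 3.86 and 3.81 CPM in Young 1, 3, 4 and 5. The Old libraries 7, 8, 9 and 10 had 23.9, 3.12, 3.47 and 3.04 CPM of it, and the Old_CP2 libraries 11, 12, 13 and 15 had 3.76, 3.24, 3.36 and 5.87 CPM. The other 10 values lay between 3.02 and 3.86 CPM, and the groups overlapped. Pcp2 shares 941 of its 1828 annotated exon bases (51.5%) with Pet100 on the other strand, and the library kit does not mark strand, so reads from the shared stretch cannot be told apart. Pet100 itself measured 21.8 CPM in Old 7 and 10.7 to 15.1 CPM in the other 11 libraries.

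Car8 encodes a carbonic anhydrase-related protein, without enzyme activity, that binds the IP3 receptor of Purkinje cells (ENSMUSG00000041261, chr4:8143362-8239041). Its levels were 8.71, 11.1, 10.7 and 9.28 CPM in Young, 101, 9.82, 9.38 and 8.33 CPM in Old, and 8.36, 9.40, 7.50 and 23.8 CPM in Old_CP2, in the library order above. Old 7 stood 10.98 times above the mean of the other 3 Old libraries, and Old_CP2 15 stood 2.83 times above the other 3 of its group. For Pcp2 these ratios were 7.45 and 1.70.

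Ppp1r17, which encodes a phosphatase inhibitor of Purkinje cells also called G-substrate (ENSMUSG00000002930, chr6:56017515-56032688), was low in most libraries. It measured 0.932, 1.46, 1.07 and 0.524 CPM in Young, 15.3, 0.235, 0.384 and 0.765 CPM in Old, and 0.198, 0.265, 1.15 and 3.16 CPM in Old_CP2. The ratio was 33.05 for Old 7 and 5.88 for Old_CP2 15, and outside these libraries the gene ranged from 0.198 to 1.46 CPM with the 3 groups overlapping.

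Of the cerebellins, Cbln3 showed the widest spread of the 8 genes. Cbln3 is made by granule cells and needs cerebellin-1 to leave the cell (ENSMUSG00000040380, chr14:55878920-55884256). In Young it measured 0.608, 0.409, 0.473 and 0.335 CPM, in Old 85.2, 0.750, 0.794 and 0.765 CPM, and in Old_CP2 0.593, 0.631, 0.640 and 8.71 CPM. Old 7 was 110.64 times the mean of the other 3 Old libraries, and Old_CP2 15 was 14.02 times the mean of the other 3 Old_CP2 libraries. All 4 Old libraries lay above all 4 Young libraries, while Young and Old_CP2 overlapped.

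Cbln1 (ENSMUSG00000031654, chr8:87468854-87472592), the secreted organiser itself, was present throughout at 21.4, 32.4, 23.8 and 24.4 CPM in Young, 76.6, 20.3, 17.4 and 25.3 CPM in Old, and 16.8, 20.8, 25.9 and 25.4 CPM in Old_CP2. Old 7 stood 3.65 times above its group, and Old_CP2 15, at 1.20 times its group, lay within the range of the other libraries and below Old_CP2 13. The adjoining long noncoding RNA Gm2694, which shares no exon bases with Cbln1, measured 9.38 CPM in Old 7 and 1.59 to 2.75 CPM in the other 11 libraries.

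**Figure D1:**
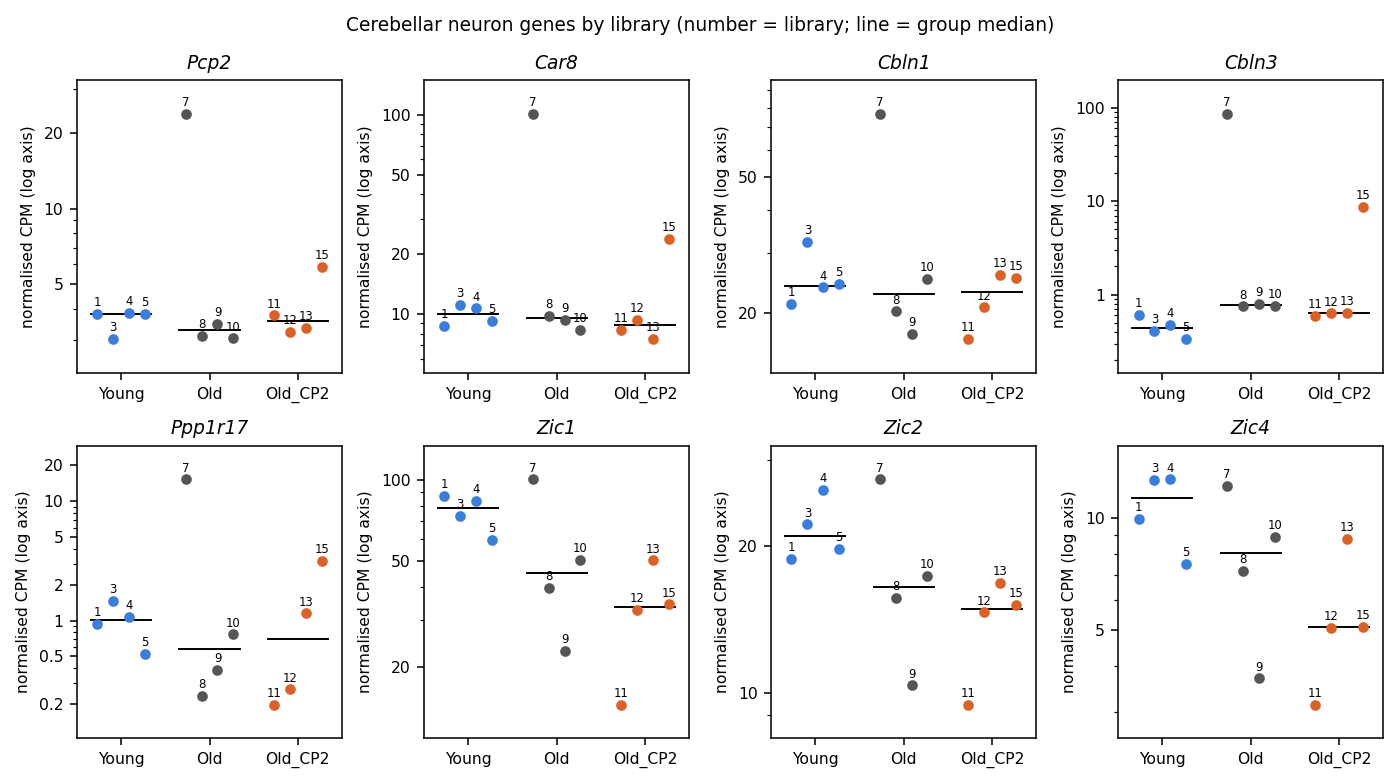
Normalised CPM of each of the 8 genes on log axes, one point per library, numbered by library, in the groups Young, Old and Old_CP2, with a line at the group median. Old 7 stands apart for Pcp2, Car8, Cbln1, Cbln3 and Ppp1r17, Old_CP2 15 for Pcp2, Car8, Cbln3 and Ppp1r17, and the 3 Zic genes spread over all libraries with Old_CP2 11 lowest.

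Zic1 (ENSMUSG00000032368, chr9:91358058-91365810), an activator needed for cerebellar growth, measured 87.3, 73.5, 83.4 and 59.6 CPM in Young, 100.4, 39.7, 23.0 and 50.4 CPM in Old, and 14.5, 32.7, 50.1 and 34.4 CPM in Old_CP2. All 4 Young libraries lay above all 4 Old_CP2 libraries. Young also lay above Old 8, 9 and 10, and Old 7 was the one old library above the Young range. Among the other 10 libraries the gene ran from 14.5 to 87.3 CPM.

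Zic4 lies beside Zic1 on the opposite strand (ENSMUSG00000036972, chr9:91362413-91389348), and the genes share 60 exon bases, 1.05% of those of Zic1. Its levels were 9.94, 12.6, 12.7 and 7.53 CPM in Young, 12.2, 7.21, 3.70 and 8.87 CPM in Old, and 3.14, 5.05, 8.76 and 5.08 CPM in Old_CP2. Zic2 (ENSMUSG00000061524, chr14:122475435-122479852), which acts in closure of the neural tube and forebrain midline, measured 18.8, 22.1, 26.0 and 19.7 CPM in Young, 27.3, 15.6, 10.3 and 17.3 CPM in Old, and 9.45, 14.6, 16.8 and 15.1 CPM in Old_CP2. Both were lowest in Old_CP2 11 and next lowest in Old 9, as was Zic1. Old 7 stood 2.66, 1.89 and 1.85 times above the other Old libraries for Zic1, Zic2 and Zic4, and Old_CP2 15 stood at 1.06, 1.11 and 0.90 times its group.

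The part of the level of Old_CP2 15 above its own group, taken as a percentage of the part of Old 7 above its own group, was 11.7% for Pcp2, 16.8% for Car8, 17.7% for Ppp1r17, 9.59% for Cbln3 and 7.69% for Cbln1. It was 11.8% for Zic2, 3.05% for Zic1 and -10.2% for Zic4, which lay below its group in Old_CP2 15. This measure was chosen after the values were seen. For Gabra6, the GABA-A receptor subunit of granule cells, it was 13.5%, and for Fat2, a large cadherin of granule cells, 13.1%. Other granule cell markers ranged from -62.0% for Etv1 through 1.90% for Cdh15 to 80.8% for Calb2. Purkinje cell markers ranged from -1580% for Rora, whose level in Old 7 was near its group, through -57.6% for Itpr1 and 35.7% for Homer3 to 65.6% for Lhx5. Foxp2 gave no value because Old 7 lay below its group.

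Order of the genes within a library was read from the deposited RPKM (reads per kilobase of gene and size of the library), which allows for gene length. Pcp2 shares 51.5% of its annotated exon bases with Pet100, and reads from that stretch cannot be told apart. Its RPKM, and so its place in the order, is uncertain in every library. Over the 10 libraries other than Old 7 and Old_CP2 15, the median was 7.93 RPKM for Cbln1 (5.97 to 11.3), 7.42 for Zic1 (2.16 to 12.2), 4.97 for Zic2 (2.77 to 7.37), 1.97 for Car8 (1.65 to 2.34) and 1.54 for Pcp2 (1.33 to 1.74). Below these came Zic4 at 0.659 RPKM (0.257 to 1.00), Ppp1r17 at 0.308 (0.0961 to 0.683) and Cbln3 at 0.109 (0.0584 to 0.135). Neighbours in that order overlapped in range for Cbln1 and Zic1, Zic1 and Zic2, Car8 and Pcp2, and Zic4 and Ppp1r17. The ranges of Ppp1r17 and Cbln3 met between 0.0961 and 0.135 RPKM. Those of Zic2 and Car8 and of Pcp2 and Zic4 did not meet.

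In Old 7 the order per length was Cbln1 (27.3 RPKM), Car8 (21.7), Cbln3 (15), Zic1 (14.7), Pcp2 (10.9), Zic2 (7.89), Ppp1r17 (7.29) and Zic4 (0.982). Cbln3 moved from the lowest of the 8 to the third place. In Old_CP2 15, Cbln3 measured 1.59 RPKM, Ppp1r17 1.56, Pcp2 2.76 and Car8 5.32, while Cbln1, at 9.38, Zic1, at 5.19, Zic2, at 4.52, and Zic4, at 0.423, lay inside the range of the other 10. Cbln1 was the highest of the 8 in 10 libraries and Zic1 in the other 2, Young 1 and Young 4.

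**Figure D2:**
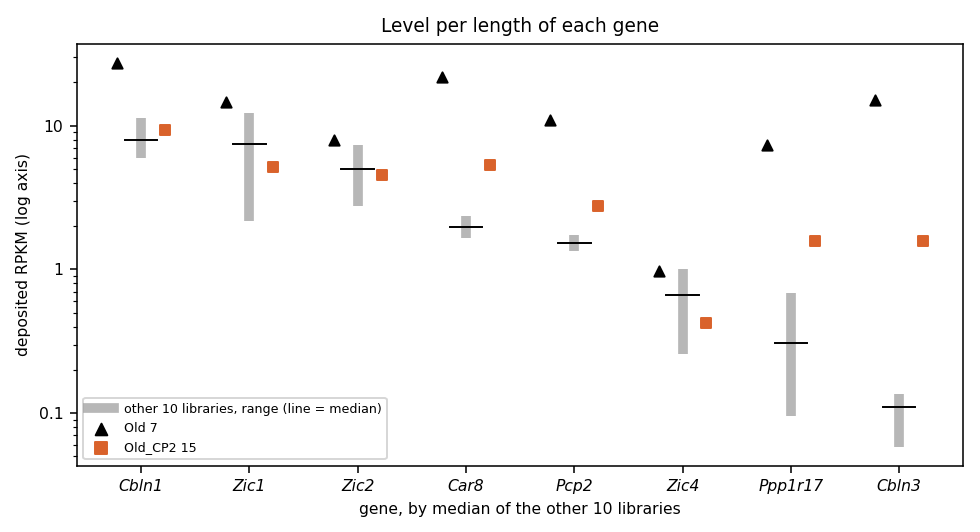
Deposited RPKM of the 8 genes on a log axis, ordered by the median of the 10 libraries other than Old 7 and Old_CP2 15; bars span the range of those 10 and separate symbols give Old 7 and Old_CP2 15. Cbln3 runs from a median of 0.109 RPKM to 15 RPKM in Old 7, whereas Zic4, at 0.982 RPKM in Old 7, stays inside the range of the other 10.

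Old against Young asks what differs with age, strain label and vehicle together. The differences were 5.59 ± 1.70 log2 units (SE, adjusted p = 0.0690) for Cbln3, 2.07 ± 1.15 (0.329) for Ppp1r17, 1.69 ± 0.723 (0.193) for Car8, 1.21 ± 0.574 (0.243) for Pcp2 and 0.45 ± 0.375 (0.544) for Cbln1, all with the higher mean in Old. Zic1 differed by -0.51 ± 0.390 (0.505), Zic4 by -0.42 ± 0.334 (0.528) and Zic2 by -0.29 ± 0.241 (0.543). Of 8 members 0 passed an adjusted p of 0.05 in edgeR's quasi-likelihood test with Benjamini-Hochberg adjustment, against 6.7% of the 22553 genes tested (3.96% higher and 2.74% lower), and 2, Cbln3 and Car8, had an unadjusted p under 0.05, which 21.4% of all genes had. DESeq2 gave an adjusted p for 22524 genes, among the members for Cbln1, Zic1, Zic2 and Zic4 only, and called 0 of these 4 in each of the 3 comparisons. Car8, left without an adjusted p, had 668 to 9112 counts per library. The groups did not overlap for 1 member higher in Old, Cbln3, and for 0 lower, against 6.94% and 6.32% of all genes. The median difference of the members was 0.83 log2 units, beside -0.0034 over all genes tested.

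The spread within Old was wide. Cbln3 had 21.9 ± 42.2 CPM in Old and 0.456 ± 0.116 in Young (SD, n = 4), and Car8 had 32.1 ± 45.8 and 9.95 ± 1.13. With Old 7 and Old_CP2 15 left out, the differences were -0.18 log2 units for Pcp2, -0.12 for Car8, -0.28 for Cbln1 and -1.08 for Ppp1r17, the opposite direction to that with all libraries. Cbln3 kept its direction at 0.76 ± 0.216 (adjusted p = 0.0669), and Zic1, Zic4 and Zic2 differed by -1.01, -0.70 and -0.58. No member passed (0 of 8, against 5.33% of 22758 genes), 3 had an unadjusted p under 0.05 (20.7% of genes), and the median was -0.43.

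Old_CP2 against Old asks what differs with CP2 at the same age. All 8 differences had the lower mean in Old_CP2: -3.07 ± 1.44 log2 units for Cbln3 (adjusted p = 0.795), -1.83 ± 1.13 for Ppp1r17 (0.830), -1.39 ± 0.715 for Car8 (0.806), -1.05 ± 0.570 for Pcp2 (0.821) and -0.65 ± 0.376 for Cbln1 (0.826). The Zic genes stood at -0.70 ± 0.393 for Zic1 (0.826), -0.54 ± 0.337 for Zic4 (0.830) and -0.34 ± 0.242 for Zic2 (0.855). edgeR's test called 0 of 8, against 0.0443% of all genes, 0 had an unadjusted p under 0.05 (6.31% of all genes), and the groups overlapped for all 8, where 1.62% of genes were higher and 1.82% lower without overlap. Leaving out Old 7 and Old_CP2 15, Pcp2 stood at 0.11, Cbln1 at 0.01 and Ppp1r17 at 0.19, now with the higher mean in Old_CP2, and Car8 at -0.12 and Cbln3 at -0.31. Again 0 of 8 passed, against 0.141% of genes.

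Old_CP2 against Young shares its libraries with both other comparisons. The Zic genes had the lower mean in Old_CP2, by -1.21 ± 0.396 log2 units for Zic1 (adjusted p = 0.0840), -0.96 ± 0.338 for Zic4 (0.108) and -0.63 ± 0.242 for Zic2 (0.138). Their means were 75.9 ± 12.4 CPM in Young and 32.9 ± 14.6 in Old_CP2 for Zic1, 10.7 ± 2.46 and 5.51 ± 2.35 for Zic4, and 21.6 ± 3.23 and 13.98 ± 3.16 for Zic2 (SD, n = 4). Pcp2, Car8, Cbln1 and Ppp1r17 lay within 1 SE of 0, and Cbln3 at 2.52 ± 1.63 (0.387). The 3 Zic genes had an unadjusted p under 0.05, as did 23.2% of all genes, and 0 of 8 passed, against 7.57% of all genes (4.63% higher, 2.94% lower). Zic1 and Zic2 did not overlap between the groups and were lower in Old_CP2, and 0 members were higher without overlap, against 7.07% and 8.42% of all genes.

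In a fit of only the 8 libraries of these groups, Zic1 at -1.21 (adjusted p = 0.0341) and Zic2 at -0.63 (0.0431) passed the threshold, as did 7.79% of the 21987 genes tested there. Without Old_CP2 13, Zic4 passed at -1.27 (0.0423), as did 6.18% of 22847 genes. With Old 7 and Old_CP2 15 left out, Zic1 stood at -1.23 ± 0.352 (0.0520), Zic2 at -0.67 (0.0654) and Zic4 at -0.92 (0.120), with 0 of 8 called against 8.65% of genes, while Pcp2, Car8 and Ppp1r17, at 0.16, 0.30 and 0.24 with all libraries, stood at -0.07, -0.24 and -0.90.

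**Figure D3:**
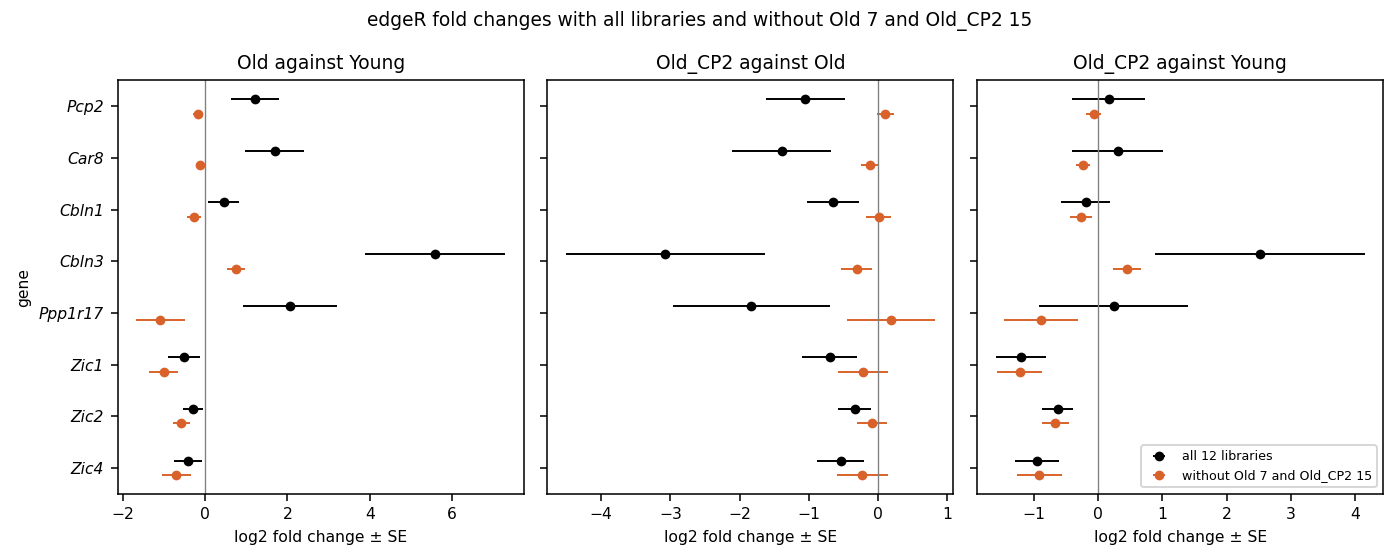
Log2 difference of each of the 8 genes in the 3 comparisons, with all 12 libraries and without Old 7 and Old_CP2 15. Bars are the SE, derived from the log2 difference and the F statistic of the edgeR test. With all libraries Cbln3 runs from 5.59 in Old against Young to -3.07 in Old_CP2 against Old; without these libraries Cbln3 is at 0.76 and -0.31, and Zic1 is at -1.23 in Old_CP2 against Young.

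Of 7 relatives and partners of the cerebellins and Zic genes, 0 rose and 1 fell in Old against Young: Nrxn3, a neurexin, at -0.22 (adjusted p = 0.0122). In Old_CP2 against Young and in Old_CP2 against Old edgeR called 0 of 7, and 3 and 1 had an unadjusted p under 0.05 (23.2% and 6.31% of all genes). For this and the following lists, edgeR called 3.96% of all genes higher and 2.74% lower in Old against Young. The shares were 4.63% and 2.94% in Old_CP2 against Young, and 0.0443% in either direction in Old_CP2 against Old. Without Old 7 and Old_CP2 15, 5.33% were called in Old against Young and 8.65% in Old_CP2 against Young. The list's median was -0.15, -0.09 and 0.07 in the 3 comparisons, in that order. Zic5, a further Zic factor, had 7.99 CPM in Old 7, within the Young range of 5.14 to 8.67, and like the Zic members it was lowest in Old 9 and Old_CP2 11, at 3.26 and 3.51 CPM. It differed by -0.54 in Old_CP2 against Young (adjusted p = 0.212).

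The defining granule cell markers Gabra6 and Fat2 were low or at 0 outside Old 7 and Old_CP2 15. Gabra6 measured 78.9 CPM in Old 7, 10.8 CPM in Old_CP2 15 and at most 0.176 CPM elsewhere, with 0 in Young 3 and Young 5. Fat2 measured 69.3 and 9.51 CPM in these libraries and 0.134 to 1.16 CPM elsewhere. Cdh15, a cadherin of granule cells, had 5.44 CPM in Old 7, 2.33 in Old_CP2 15 and 0.471 to 2.93 elsewhere, and the transcription factor gene Neurod1 had 36.8 CPM in Old 7 and 11.04 to 15.7 in the other 11. Of the 10 genes in the list, 6 were highest in Old 7. Atoh1, the factor of granule cell precursors, had no reads in any library and was not tested.

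Between the groups, 1 of the 9 granule genes tested rose and 0 fell in Old against Young, and the same counts held in Old_CP2 against Young. In Old_CP2 against Old edgeR called 0, and 2 had an unadjusted p under 0.05 (6.31% of all genes). The gene that rose was Barhl1, a homeobox factor of developing granule cells, at 1.98 (adjusted p = 0.000806) and 1.82 (0.000943). It was not high in Old 7 alone, with 0.562 to 0.963 CPM in Young and 1.87 to 3.73 CPM in the 8 old libraries. In Old 7 Barhl1 stood at 1.25 times its group, beside 707.9 times for Gabra6 and 85.4 times for Fat2. Which cells its reads came from was not tested. Gabra6 and Fat2 did not pass in Old against Young (adjusted p = 0.0765 and 0.0668). Median differences of the list were 0.25, -0.31 and 0.27 in Old against Young, Old_CP2 against Old and Old_CP2 against Young. Without Old 7 and Old_CP2 15, 3 rose and 2 fell in Old_CP2 against Young (Barhl1, Etv1, Neurod1, Grin2c and Pax6).

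The Purkinje cell markers summed to 1701 CPM in Old 7, the highest of the libraries, and to 1135 CPM in Old_CP2 15, the lowest. Itpr1 was the largest part of both sums, at 734 and 457 CPM. The sum therefore mostly follows a few abundant genes. In Old_CP2 15, Itpr1 stood at 0.79 times its group, whereas 4 of the 12 markers, Homer3, Lhx1, Lhx5 and Pvalb, were second highest there. Among these markers 8 of 12 were highest in Old 7, though the defining ones differed. Slc1a6, a glutamate transporter of Purkinje cells, had 27.5 CPM in Old 7, 13.1 in Old_CP2 15 and 8.84 to 13.6 elsewhere, while Rgs8, a regulator of G protein signalling, had 147 CPM in Old 7 beside 149 in Young 5. In Old against Young 1 of 12 rose (Lhx5, 1.03, adjusted p = 0.0483) and 3 fell: Foxp2 (-0.58, 0.00424), Rora (-0.62, 0.0280) and Pcp4 (-0.84, 0.00886). These 3 are also known from thalamus. The same 3 fell in Old_CP2 against Young, where 0 rose, and 0 passed in Old_CP2 against Old. Without Old 7 and Old_CP2 15 the 3 still fell in both comparisons with Young and Lhx5 no longer passed. The medians were 0.14, -0.03 and -0.13 in Old against Young, Old_CP2 against Young and Old_CP2 against Old.

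All 4 genes listed for other cerebellar cells were highest in Old 7 and second in Old_CP2 15. Gdf10, of Bergmann glia, measured 15.5 CPM, 7.36 CPM and 4.20 to 6.94 CPM elsewhere, Eomes, of unipolar brush cells, 2.61, 0.397 and 0.0248 to 0.307, and Pax2, of inhibitory interneuron precursors, 2.06, 0.719 and 0.117 to 0.489. Slc6a5, the neuronal glycine transporter of Golgi cells and of brainstem, had 33.2 CPM in Old 7, 14.8 in Old_CP2 15, 0.954 to 4.39 in the other old libraries and 0.220 to 0.343 in Young. It was the 1 of 4 that rose in Old against Young (5.21, adjusted p = 0.0194) and in Old_CP2 against Young (4.40, 0.0345), and 0 fell.

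**Figure D4:**
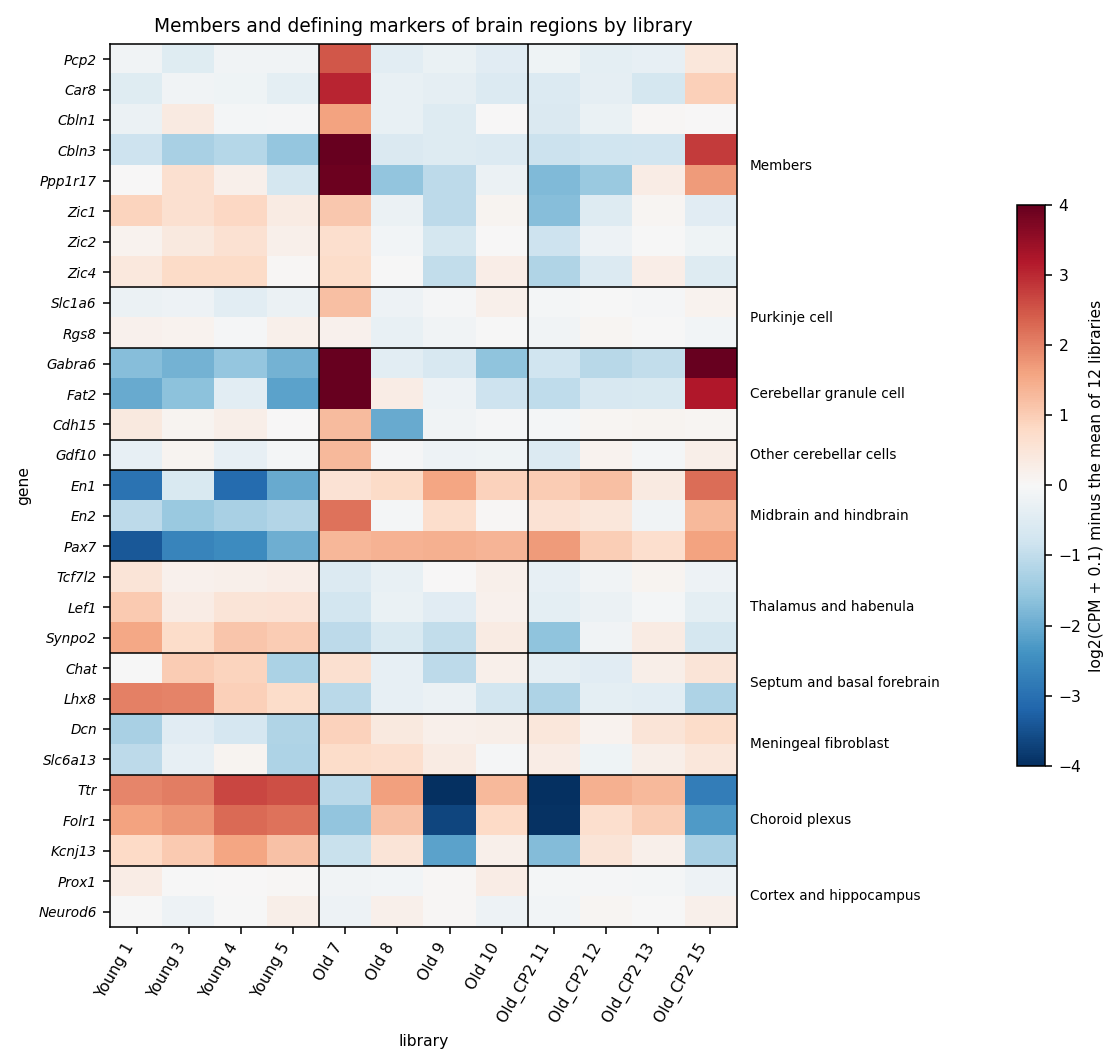
The 8 genes and the defining markers of each list (rows) by library (columns), coloured by log2(CPM + 0.1) minus the gene's mean over the 12 libraries, with colours capped at 4 log2 units either way. Old 7 is high for Pcp2, Car8, Cbln1, Cbln3, Ppp1r17, Slc1a6, Gabra6, Fat2, Cdh15 and Gdf10 but not for Rgs8, Old_CP2 15 is next for Cbln3, Gabra6 and Fat2, and the Zic rows are also high in Young and low in Old 9 and Old_CP2 11.

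Markers of other regions and tissues that a brain section can hold moved with the members as follows, and their part in the results was not tested. The thalamus and habenula list, whose defining genes are Tcf7l2, Lef1 and Synpo2, had sums of 559 to 914 CPM among Young, 242 to 464 among Old and 223 to 471 among Old_CP2 libraries, and 0 of 12 genes rose and 7 fell in both comparisons with Young. In the fit without Old 7 and Old_CP2 15, 3 of 12 fell in each (Lef1, Rgs16 and Ntng1 in Old against Young, and Lef1, Rgs16 and Plekhg1 in Old_CP2 against Young). Within the old libraries, those with the highest Zic1 apart from Old 7, namely Old 10 and Old_CP2 13 (50.4 and 50.1 CPM), also had the highest thalamic sums (464 and 471 CPM), and Old_CP2 11, with the lowest Zic1, had the lowest sum, 223 CPM. Old 7 joined the highest Zic1, 100.4 CPM, with a thalamic sum of 242 CPM. Old_CP2 12 had the next highest sum among old libraries, 377 CPM, and 32.7 CPM of Zic1. Old 8 and Old_CP2 15 had lower sums, 313 and 272 CPM, and more Zic1, 39.7 and 34.4 CPM. Lef1 stood at -0.91 in Old against Young (adjusted p = 0.0116) and Synpo2 at -1.60 (0.0254).

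Midbrain and hindbrain markers rose in 12 and fell in 0 of the 17 tested in Old against Young, and in 13 and 0 in Old_CP2 against Young. En2, a homeobox factor of midbrain and cerebellum, had 14.5 CPM in Old 7, 7.82 in Old_CP2 15, 2.87 to 5.21 in the other old libraries and 1.06 to 1.49 in Young. En1 and Pax7 were not highest in Old 7, at 1.78 and 3.85 CPM. En1 was highest in Old_CP2 15 (5.84 CPM) and Pax7 in Old_CP2 11 (5.06 CPM).

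Meningeal markers, which share Zic expression, had sums of 148 to 262 CPM among Young, 195 to 289 among Old and 215 to 262 among Old_CP2 libraries. Of 12 genes 4 rose in Old against Young and 6 in Old_CP2 against Young, and 0 fell; the defining Dcn stood at 1.34 (adjusted p = 0.00352) and 1.35 (0.00270), and Slc6a13 at 0.99 (0.0462) and 0.76 (0.110). Without Old 7 and Old_CP2 15, Dcn alone passed in both. The genes that passed had the higher mean in Old and Old_CP2. A link between meningeal content and the Zic levels was not tested. Igf2 of the same list went the other way, at -0.45 (adjusted p = 0.197) and -0.51 (0.134). Igf2 was lowest in Old_CP2 11 and Old 9, at 59.1 and 62.0 CPM, which had the lowest levels of the Zic genes and also the lowest choroid plexus sums. The defining genes of the meningeal list did not share this order. Dcn was lowest in Young 1, at 14.1 CPM, and Slc6a13 in Young 5, at 3.81 CPM. Choroid plexus genes, among them Ttr, Folr1 and Kcnj13, summed to 1248 to 2006 CPM in Young and to 177 in Old 7, 34 in Old 9, 30.5 in Old_CP2 11 and 72.0 in Old_CP2 15, beside 812 to 991 in the other 4 old libraries, with 0 of 11 passing in either direction. Septal markers had 2 of 6 falling in Old against Young and 1 in Old_CP2 against Young, including the defining Lhx8 in both, which had no reads in Old_CP2 11 and Old_CP2 15, while Chat did not pass; without Old 7 and Old_CP2 15, Lhx8 alone passed in both. Cortical and hippocampal markers were lowest in sum in Old 7, at 383 CPM, then in Old_CP2 15, at 431, with 457 to 510.3 CPM in the other 10. The defining genes differed. Prox1 was lowest in Old_CP2 15, at 45.1 CPM, and had 47.8 CPM in Old 7 beside 47.9 in Old 8. Neurod6 had 82.6 CPM in Old_CP2 15, within its range of 62.1 (Old 7) to 85.0 CPM (Young 5), and 62.4 CPM in Old 10. In each comparison with Young 1 of 8 rose, Fezf2. In Old_CP2 against Old edgeR called 0 genes in each of these lists, and 1 cortical gene alone had an unadjusted p under 0.05 (6.31% of all genes).

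The genes most like each member over the 12 libraries were found by the root mean square difference of log2 CPM, each gene centred on its mean, among 13882 genes. For Pcp2 they were Il20rb (0.30), B3gnt5 (0.33) and Pvalb (0.41), and for Car8 Arhgef33 (0.39), Il20rb (0.49) and B3gnt5 (0.53). Cbln1 was most like Gdf10 (0.24), Atp2a3 (0.25) and Fam107b (0.27). For Cbln3 the nearest were Fat2 (0.69), Arhgef33 (1.12) and Dao (1.20), and for Ppp1r17 Arhgef33 (1.08), Zfp385c (1.17) and Fgf7 (1.21). Arhgef33 measured 23.1 CPM in Old 7, 4.11 in Old_CP2 15 and 1.06 to 2.17 elsewhere.

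Among the genes nearest to Zic1 were Cnksr3 (0.39) and Wnt3 (0.39), and among those nearest to Zic4 were Zic5 (0.29) and Cnksr3 (0.35). Zic2 spanned 1.53 log2 units over the libraries, under the 2 set for naming such genes, so none is given. The span was 7.97 log2 units for Cbln3, 6.23 for Ppp1r17, 3.75 for Car8, 2.98 for Pcp2, 2.79 for Zic1, 2.19 for Cbln1 and 2.01 for Zic4. Among the members themselves, Zic1 and Zic4 differed by 0.26, Zic4 and Zic2 by 0.27 and Pcp2 and Car8 by 0.31, whereas Cbln3 and Zic4 differed by 2.21. All of these values share the 12 libraries, Old 7 among them.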

How the data were processed

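TruSeq RNA libraries, from a kit that does not mark strand, were sequenced as paired reads, per the labels' protocols. The authors' processing used bcl2fastq, TopHat and Subread featureCounts on mm10, per the submitters' processing notes; for the tools and the gene annotation, versions are not given in the sources used here. Per the file headers, the deposited table gives raw counts and RPKM per gene in each library; assigned counts were 79.9% to 85.4% of the total that the deposited RPKM imply. Counts of all 12 libraries, from 70548781 to 99449665 per library, were fitted in edgeR 4.0.16 (R 4.3.3, limma 3.58.1) with filterByExpr, TMM factors and group as the one term, and quasi-likelihood tests were two-sided with Benjamini-Hochberg adjustment over the 22553 genes tested and a call at 0.05. The SE of a log2 difference was its absolute value divided by the square root of the F statistic of its edgeR test. The fit was tested on simulated data.

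The members and all marker lists were chosen with earlier results of these data known. The text names the 8 members, the defining genes of each list, up to 4 further list genes by smallest p, and for each member spanning over 2 log2 units (prior count 0.5) the 3 genes most like it with a mean of at least 1 CPM. Some genes of the lists and of those most like a member are not reported here, and list counts and sums are without them. Genes named beyond this rule were chosen after their values were seen. Alternatives were DESeq2 1.42.0, DESeq2's size factors in edgeR (RLE), no filter on low counts, fits of the 2 groups compared, leaving out each library and, added after seeing the data, leaving out Old 7 and Old_CP2 15 together. RefSeq promoters were cut at the outermost GENCODE vM21 start, and exon overlaps are from vM21. The table of per-gene protein sequences was not used here.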

Additional observations from a re-analysis of the deposited data

Results flagged for a closer look

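In 8 of 24 groups of 4 libraries, 1 library stood farther from the others than Dixon's 95% limit. For groups picked without sight of the data, chance gives about 1 group in 20. The 24 groups share libraries, and the members were chosen with earlier results of these data known. The count therefore cannot be set against that rate. Old 7 was the library concerned for 5 genes in Old: Pcp2 at 23.9 CPM (3.04 to 3.47 in the others), Car8 at 101 CPM (8.33 to 9.82), Cbln1 at 76.6 CPM (17.4 to 25.3), Cbln3 at 85.2 CPM (0.750 to 0.794) and Ppp1r17 at 15.3 CPM (0.235 to 0.765). Old_CP2 15 was the library for Car8 at 23.8 CPM (7.50 to 9.40) and Cbln3 at 8.71 CPM (0.593 to 0.640). In Young, Pcp2 was low in Young 3, at 3.02 CPM beside 3.81 to 3.86 CPM. None of the Zic genes met the limit in any group.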

How the results depend on the processing

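No paired analysis was possible because the groups share no replicate number. Left-out libraries turned the direction of these member differences (log2, lowest to highest). Old against Young: Pcp2 -0.17 to 1.498, Car8 -0.11 to 2.02, Cbln1 -0.28 to 0.69 and Ppp1r17 -1.08 to 2.47, the lowest without Old 7. Old_CP2 against Old: Pcp2 -1.34 to 0.33, Car8 -1.93 to 0.41, Cbln1 -0.88 to 0.079, Cbln3 -5.14 to 1.77 and Ppp1r17 -2.97 to 1.33, the highest without Old 7. Old_CP2 against Young: Pcp2 -0.064 to 0.26, Car8 -0.23 to 0.48 and Ppp1r17 -0.89 to 0.60, the lowest without Old_CP2 15. Directions held, but sizes moved, for Cbln3 in Old against Young (0.77 without Old 7 to 6.01) and in Old_CP2 against Young (0.46 without Old_CP2 15 to 2.86), and in Old_CP2 against Old for Zic1 (-0.98 to -0.20), Zic2 (-0.53 to -0.05) and Zic4 (-0.86 to -0.26), the highest without Old 7. In Old against Young, Zic1, Zic2 and Zic4 stood at -1.01, -0.58 and -0.69 without Old 7. Without both libraries, directions turned for Pcp2 (-0.18), Car8 (-0.12), Cbln1 (-0.28) and Ppp1r17 (-1.08) in Old against Young, Pcp2 (0.11), Cbln1 (0.011) and Ppp1r17 (0.19) in Old_CP2 against Old, and Pcp2 (-0.071), Car8 (-0.24) and Ppp1r17 (-0.90) in Old_CP2 against Young.

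Members called were 0 in all comparisons under the main fit, and in Old_CP2 against Young 2 with only the 2 groups compared and 0 to 1 with a library left out (1 without Old_CP2 13). DESeq2 gave no adjusted p for Pcp2, Car8, Cbln3 and Ppp1r17 and called 0 of the other 4. Genes called in Old against Young were 1511, 2474 by DESeq2 and 855 to 1258 with a library left out, the lowest without Young 4 (934 without Old 7, 952 without Old 9, 971 without Young 5); in Old_CP2 against Young 1707, 2652 and 827 to 1590, the lowest without Old_CP2 11 (1036 without Young 4, 1043 without Old_CP2 12, 1050 without Young 1); in Old_CP2 against Old 10, 108 by DESeq2, 17 with no filter, 6 (without Old 9) to 38 (without Old_CP2 15), and 32 without both libraries. The median of all genes moved by at most 0.0102 from the value with all libraries. Precision is limited by 4 libraries per group and, for Cbln3 and Ppp1r17, by low counts outside Old 7 and Old_CP2 15. The causes were not tested.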
